A study of Mus musculus with 3 samples.

Results

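RNA recovered with an antibody against HuR was compared with RNA recovered with control IgG, by sequencing (RIP-seq, in which RNA held by an antibody's target protein is pulled down with it). By their labels the extracts came from C2C12, an established mouse myoblast line that fuses into muscle cells when serum is lowered. The cells had differentiated for 2 days under 2% horse serum, and beads carrying anti-HuR, anti-YB1 or IgG each received 500 µg of extract. There was 1 library per antibody, and no replicate, so no p-value can be given and genes are described by the size of their ratio. The value columns carry a suffix, siCtl, whose meaning no label gives. The genes described here were those at 10 or more normalized counts in the HuR library, 11894 of the 15403 genes in the table. A normalized count is a read count divided by the authors' size factor for the library, and a log2 ratio of 1 is a 2-fold difference. The members nearest the minimum were 55 genes at 12 reads (10.3 normalized counts), with a median log2 ratio of HuR over IgG of -0.63, and the nearest genes outside were 54 at 11 reads (9.48), with a median of -1.54.

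HuR, encoded by Elavl1, is an RNA-binding protein of the ELAV family. It binds U-rich and AU-rich stretches, mostly in 3′ untranslated regions (3′ UTRs) of mRNAs and in introns, and is known for raising the stability or the translation of many of the mRNAs it binds. In muscle cells HuR is known to bind the mRNAs of the myogenic factors Myog and Myod1 and of the cell cycle inhibitor Cdkn1a, and to be needed for differentiation. YB-1, encoded by Ybx1, is a cold shock domain protein that binds most mRNAs, and its immunoprecipitate is the other antibody library of the series.

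The sequences that the results turn on are 3′ UTR stretches of RNAs with high and low ratios. For each gene the 30-base window with the most copies of the U-rich heptamer TTTNTTT (T stands for U in the RNA, N for any base) is shown 5′ to 3′ on the strand of the gene, from GENCODE M21 transcripts on GRCm38, with the letters of the heptamer in capitals. The first 6 genes had at least 15 times the normalized count of the IgG library in the HuR library.
Actb, chr5:142903650-142903679, minus strand: gTTTTTTTTTTTTTTTTTTTTTTTTTTTTT
Pfn1, chr11:70651874-70651903, minus strand: ttttttggtcTTTTTTTTTTTTTTTTTTTT
Snrpf, chr10:93583275-93583304, minus strand: ttttattcaagggactcTTTTTTTTTTTTT
Klf5, chr14:99314245-99314274, plus strand: TTTTTTTTTTGTTTTGTTTTCTTTTTTTTT
Ywhaz, chr15:36771930-36771959, minus strand: ttaacttTTTCTTTCTTTTTTTTTTTTTTT
Myog, chr1:134292453-134292482, plus strand: ttgtgtggttttgccaaTTTTTTTTCTTTt
Against these stand paralogs or low-ratio RNAs whose whole 3′ UTR holds 1 heptamer or none, with the window of most T shown where there is none. Low ratios were not confined to such 3′ UTRs, since Pdk4 and Clic5, among the 12 lowest ratios over IgG, hold 20 and 16 heptamers. The log2 ratio of HuR over YB-1 was 0.27 for Myh2 and -1.16 for Hspb6.
Actg1, chr11:120345802-120345831, minus strand: tattcattctttaatttatgtaaggttttt
Snrpg, chr6:86379144-86379173, plus strand: gtgtttaagttttagaataTTTATTTgtat
Ywhaq, chr12:21390242-21390271, minus strand: tttttgaaggcttttgctgtttctctttat
Myh2, chr11:67197438-67197467, plus strand: cctttggtcatgcgcctgtgtgattctatt
Hspb6, chr7:30555159-30555188, plus strand: ttcttgaatactattctgacttccaattct

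The library labelled IgG held RNA that its label does not account for, so whether it is a control extract of the same C2C12 cells is in doubt, and this touches every ratio over it. Below, IgG means the library so labelled. C2C12 is a cell line, and all 8 skeletal muscle markers were present in each library. Of 26 markers of other cell types in the table, 19 were at 0 reads in the HuR library and 14 in the YB-1 library, whereas none was at 0 in the IgG library. The 6 endothelial markers summed to 2 reads in HuR, 27 in YB-1 and 4542 in IgG, with Pecam1, which encodes an endothelial junction protein, at 0, 1 and 1228 reads. The 5 adipocyte markers summed to 12, 2 and 2988 reads, and the 4 glial markers to 0, 26 and 1089. The markers of these 3 types were thus at or near 0 in the HuR library and present in the IgG library. The 5 immune markers summed to 0, 29 and 232 reads. Of the pericyte and smooth muscle markers, Rgs5 and Myh11 had 0 and 7 reads in HuR against 1708 and 594 in IgG. Pdgfrb and Cspg4 were present in both, at 1214 and 596 normalized counts in HuR and 1788 and 952 in IgG. Krt14 (129 against 80.3) and the neuronal marker Tubb3 (9661 against 2841) were higher in HuR than in IgG. The libraries held 24722166 (HuR), 10617029 (IgG) and 39038366 reads (YB-1). The part of this difference in make-up in the ratios over IgG was not tested, and most results are therefore also given as HuR over YB-1, which does not use the IgG library. The YB-1 library is itself an immunoprecipitate, so that ratio compares the RNAs of 2 antibodies and has no background of its own. In such bulk extracts, fewer cells of a type and less RNA per cell cannot be told apart.

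HuR and IgG differed widely over single genes, around a centre close to equality. Over the 11894 genes the log2 ratio had a median of 0.04, with quartiles of -0.89 and 0.87, and ran from -10.44 to 7.19. At least 2-fold higher in HuR were 2614 genes (22.0% of those compared), and at least 2-fold lower were 2711 (22.8%). At least 8-fold higher were 235 genes (1.98%) and at least 8-fold lower 530 (4.46%). Higher genes made up 49.1% of the genes past 2-fold, but 27.9% with ratios centred on the ribosomal protein genes, and 35.3% without the minimum in HuR. The shift of every log2 ratio was -0.50 under ribosomal centring and 0.19 under scaling to total reads, so a sign between -0.19 and 0.50 depends on the scaling. Without the IgG library, 2598 genes were at least 2-fold higher in HuR than in YB-1 (21.8%) and 981 at least 2-fold lower (8.25%), around a median of 0.00. A gene at 0 in IgG was set to 3 reads, which gives a lower bound. This was so for 148 members, all at 98.3 normalized counts or less in HuR.

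**Figure D1:**
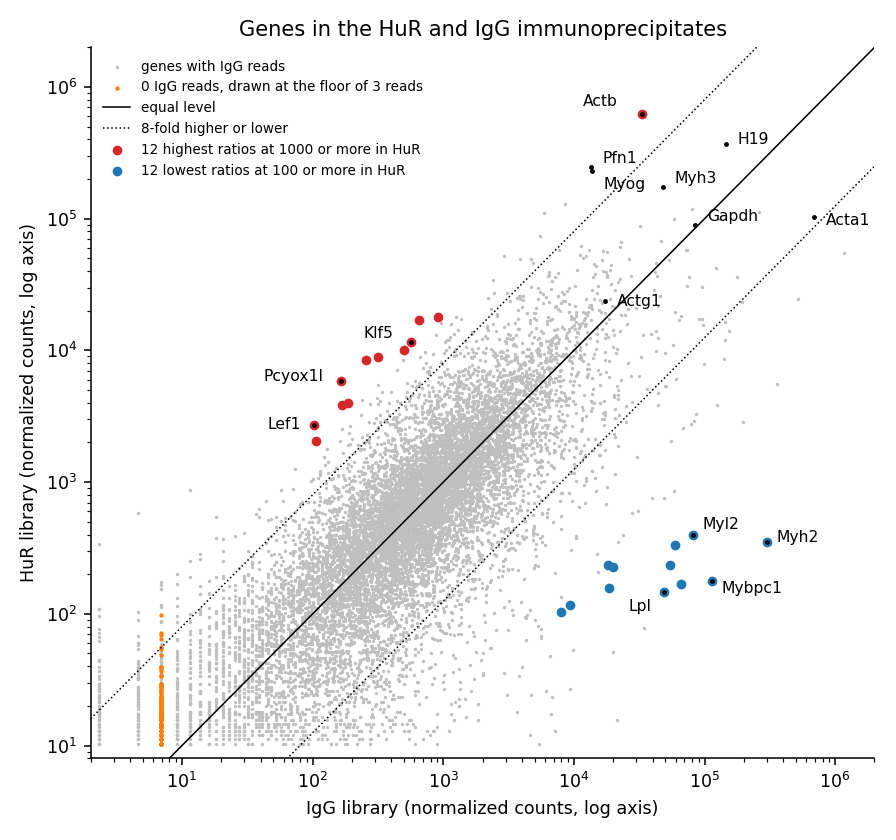
Each point is a gene, with its normalized count in the IgG library on the x axis and in the HuR library on the y axis, both on log scales, 1 library each. The 12 highest ratios at 1000 or more in HuR (red) lie above the 8-fold line and the 12 lowest at 100 or more (blue) lie below it, and genes at 0 in IgG are drawn at the floor of 3 reads.

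The 12 highest ratios at 1000 or more normalized counts in HuR belonged to genes of varied function. Cxcr4, the receptor of a chemokine that guides migrating muscle precursors, stood at 8924 normalized counts in HuR, 319 in IgG and 1013 in YB-1. Its log2 ratio of HuR over IgG was 4.81, with an exact 95% Clopper-Pearson interval of 23.7 to 33.3-fold that covers counting error only. Pmaip1, which encodes the proapoptotic protein Noxa, stood at 8448 in HuR, 255 in IgG and 653 in YB-1, and was 33.2-fold higher (27.5 to 40.4). The HuR library was the highest of the 3 for both, and YB-1 lay between HuR and IgG.

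Lef1, a transcription factor of the Wnt pathway, stood at 2695 in HuR, 103 in IgG and 525 in YB-1, and was 26.1-fold higher than in IgG (19.5 to 35.9). Klf5, a zinc finger transcription factor, stood at 11608, 562 and 1100 in the same order and was 20.6-fold higher (18.2 to 23.5). Snrpf, a core Sm protein of the spliceosome, stood at 17069, 649 and 1452 and was 26.3-fold higher (23.4 to 29.7). Actb, the cytoplasmic beta-actin, was the RNA with most reads in the HuR library, at 625331 in HuR, 32929 in IgG and 123475 in YB-1, a log2 ratio of 4.25 (18.7 to 19.3-fold). The other 6 of the 12 highest were Pcyox1l (log2 ratio 5.15), 0610007P14Rik (4.52), Serpinb9b, a serine protease inhibitor (4.43), Phlda1 (4.33), Gatm, an enzyme of creatine synthesis (4.31), and Lix1 (4.29). All 12 were lower in YB-1 than in HuR. Their log2 ratios were 0.97 to 2.35 for YB-1 over IgG and 2.26 to 3.69 for HuR over YB-1, with a median of 3.03. Both ratios use the HuR library in which these genes were chosen as high, so the second is no independent check of the first.

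**Figure D2:**
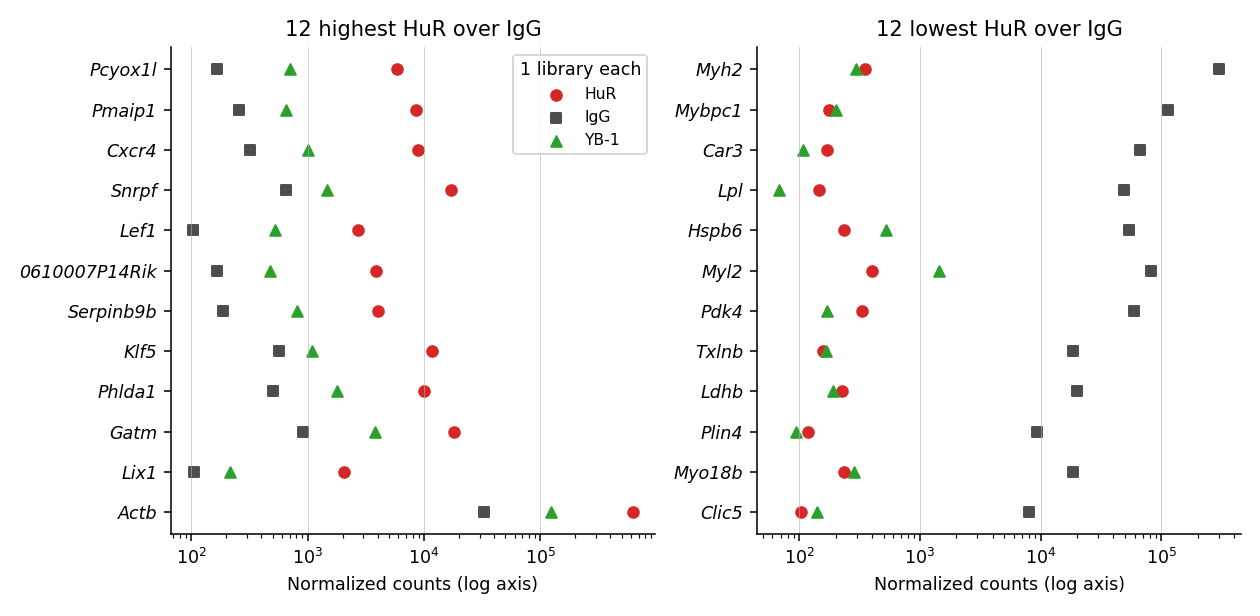
Normalized counts (x axis, log scale) in the HuR, IgG and YB-1 libraries, 1 each, for the 12 genes with the highest ratio of HuR over IgG at 1000 or more in HuR (left) and the 12 with the lowest at 100 or more (right). On the left HuR is the highest of the 3 for every gene, and on the right IgG lies far above both HuR and YB-1, which differ by up to 1.85 on the log2 scale.

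The 8 RNAs with most reads in the HuR library took 9.39% of the HuR reads against 2.47% of the IgG reads. These RNAs were picked by their level in HuR, so a larger share there follows from the choice. Besides Actb and Myog they included Pfn1, which encodes the actin-binding protein profilin, with 245299 normalized counts in HuR, 13557 in IgG and 34080 in YB-1 (18.1-fold over IgG, 17.6 to 18.6). Ywhaz, a 14-3-3 adaptor protein, stood at 129832, 8589 and 20390 (15.1-fold, 14.6 to 15.6). Per 1000 bases of transcript, the HuR level was 325693 normalized counts for Actb, 284900 for Pfn1, 161763 for the noncoding RNA H19 and 153745 for Myog. Not all abundant RNAs had a high ratio. Log2 ratios of HuR over IgG were 1.34 for H19, 1.85 for Myh3, the embryonic myosin heavy chain, 0.56 for the elongation factor Eef1a1 and -1.22 for the tropomyosin Tpm2. Over YB-1 these 4 stood at -1.33, 0.13, -0.82 and -0.67, whereas Actb stood at 2.34, Pfn1 at 2.85, Ywhaz at 2.67 and Myog at 2.33.

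Among the myogenic regulators, Myog, which drives myoblasts into terminal differentiation, had by far the highest ratio. It stood at 229849 normalized counts in HuR, 13754 in IgG and 45679 in YB-1, 16.7-fold higher than in IgG (16.3 to 17.1) and at place 50 among the members. It lies at chr1:134289989-134292548 on the plus strand of GRCm38, and its 3′ UTR of 753 bases holds 4 heptamers and 1 ATTTA pentamer. Myod1, the factor that commits cells to the muscle lineage, stood at 7165, 1732 and 6960, a log2 ratio of 2.05 over IgG and 0.04 over YB-1. The cell cycle inhibitor Cdkn1a stood at 45117, 14172 and 45429, with 1.67 over IgG and -0.01 over YB-1. Of these 3 known HuR-bound mRNAs, Myog alone was over 2-fold higher in HuR than in YB-1.

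The myogenic list had 22 members. Relative to IgG, 7 of them were 2-fold or more higher and 8 were 2-fold or more lower, beside 22.0% and 22.8% of all members. The median log2 ratio of -0.03 became 0.16 under total reads and 0.55 with a minimum of 50 in HuR. With a minimum of 10 in YB-1 instead of in HuR it became 0.04. Id2, an inhibitor of myogenic bHLH factors, stood at 2.35 and its relative Id3 at -2.01. The E proteins that pair with Myod1 and Myog stood at 2.15 (Tcf3), 1.70 (Tcf4) and 0.63 (Tcf12). The MEF2 factors, which act with Myog on muscle genes, were lower, at -2.18 (Mef2c), -3.99 (Mef2a) and -1.32 (Mef2d). Myf6, the factor of mature fibres, was lowest at -5.24, with 26.7 normalized counts in HuR, 1007 in IgG and 0 in YB-1. Without the IgG library the order differed: over YB-1, Mef2c stood at 1.73, Mef2a at 0.08 and Mef2d at -0.15, and 9 of 22 members were at least 2-fold higher against 1 lower, beside 21.8% and 8.25% of all members.

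Elavl1 mRNA, which encodes HuR, stood at 13792 in HuR, 1666 in IgG and 2847 in YB-1, a log2 ratio of 3.05 over IgG and 2.28 over YB-1. Its 3′ UTR of 4218 bases holds 54 heptamers and 17 ATTTA pentamers. Ybx1 mRNA stood at 36771, 43225 and 44148, with -0.23 over IgG and -0.26 over YB-1, and its 3′ UTR of 418 bases holds no heptamer. Hmgb1, a chromatin protein whose mRNA is a reported HuR target in myoblasts, stood at 53005, 11187 and 5323, so it was 4.74-fold higher in HuR than in IgG (4.60 to 4.88) while the YB-1 library lay below IgG. Its 3′ UTR holds 26 heptamers.

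The ratio moved with the number of U-rich heptamers in the 3′ UTR. A 3′ UTR was taken from 1 transcript per gene for 11443 members, and matches were counted on the sense strand, overlaps included. A match describes the sequence and is not a site of binding. None was found in 32.0% of these 3′ UTRs. Median log2 ratios of HuR over IgG were -0.08 with no heptamer (3663 genes), -0.07 with 1 to 2, 0.10 with 3 to 8, 0.31 with 9 to 16 and 0.51 with 17 or more (1167 genes). The share at least 2-fold higher went from 13.9% to 38.4%, beside 22.0% over all members, while the share at least 2-fold lower went from 23.2% to 19.1%. Quartiles overlapped widely, from -0.91 to 0.59 with none and from -0.60 to 1.58 with 17 or more.

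Longer 3′ UTRs hold more heptamers, so the same was read within bands of length. Among the 2329 3′ UTRs of over 500 and up to 1000 bases, 37.1% held none, with a median of -0.08, and 5.54% held 9 to 16, with a median of 1.02. In that band 12.3% of genes with none and 51.9% of those with 9 to 16 were at least 2-fold higher. The 49 genes with 17 or more were below that class, with a median of 0.85 and 42.9% at least 2-fold higher. With 9 or more against none, the difference in median log2 ratio was 1.46 at 500 bases or less (48 and 2232 genes), 1.06 at over 500 to 1000 (178 and 864), 0.95 at over 1000 to 2000 (621 and 457) and 0.43 at over 2000 to 4000 (1107 and 105). A scaling moves all genes alike and cannot change these differences. Under the alternatives for filters, floor, pseudocount and transcript they ran from 1.35 to 2.05, 0.98 to 1.18, 0.84 to 1.02 and 0.26 to 0.52. Above 4000 bases the medians ran from -0.29 with 3 to 8 heptamers to 0.01 with 17 or more.

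Without the IgG library the same classes were further apart. For HuR over YB-1 the median was -0.39 with no heptamer and 1.09 with 17 or more, and the differences of 9 or more against none were 1.52, 1.44, 1.39 and 1.20 in the same 4 bands. The ratio of YB-1 over IgG, which shares the IgG library, went the other way over all lengths, from 0.29 with none to -0.50 with 17 or more, although it was higher with 9 to 16 (0.63) than with none (0.31) at 500 bases or less, and higher with 17 or more (0.29) than with none (0.22) at over 1000 to 2000 bases.

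**Figure D3:**
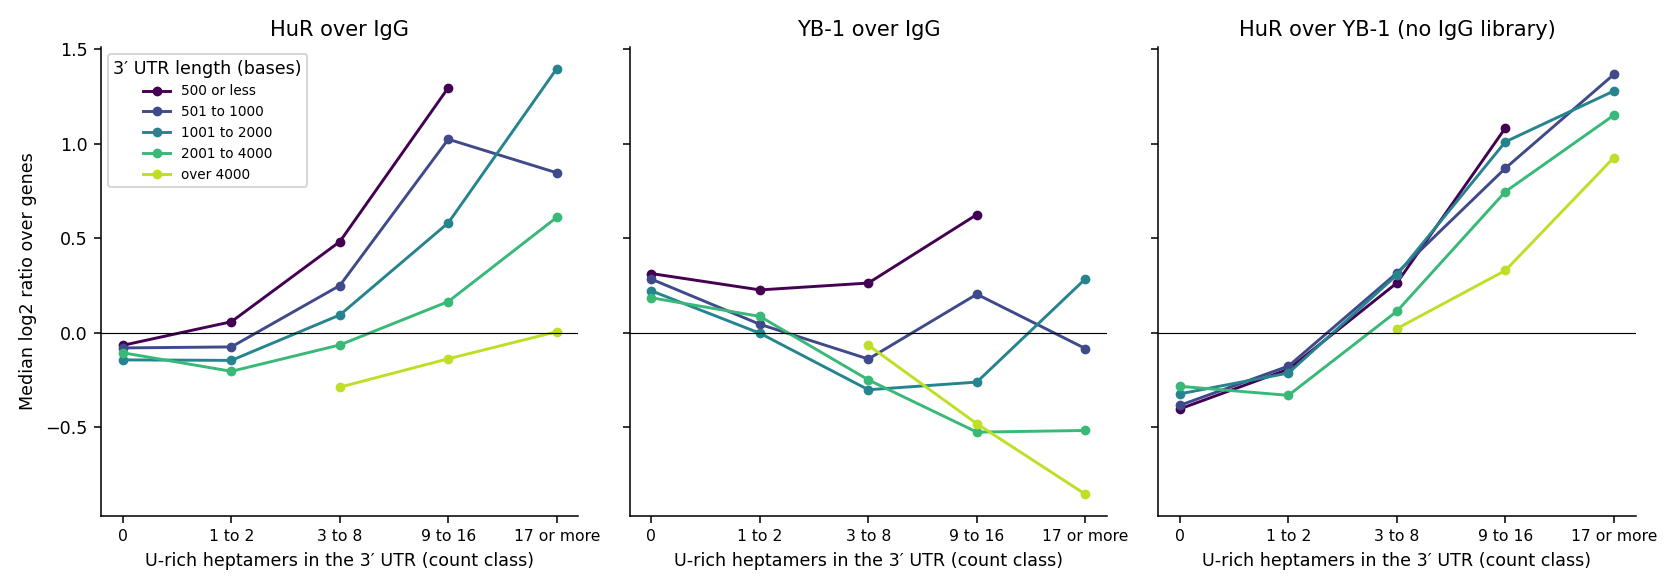
Median log2 ratio over genes (y axis) by number of U-rich heptamers TTTNTTT in the 3′ UTR (x axis), with 1 line per band of 3′ UTR length and classes of at least 20 genes, for HuR over IgG (left), YB-1 over IgG (middle) and HuR over YB-1 (right). HuR over IgG goes from -0.07 to 1.30 at 500 bases or less and from -0.14 to 1.40 at over 1000 to 2000 bases, and HuR over YB-1 is highest in the top class of each band.

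Each centre base of the heptamer gave a gradient of the same direction over all genes. With 4 or more copies against none, medians of HuR over IgG were 0.38 against -0.08 for T at the centre, 0.46 against -0.03 for G, 0.46 against -0.01 for C and 0.24 against -0.01 for A. Over YB-1 these were 0.78 against -0.28, 1.03 against -0.24, 1.12 against -0.22 and 1.12 against -0.23. Among 3′ UTRs of over 500 and up to 1000 bases, the 53 with 4 or more copies of TTTGTTT had a median of 1.99, and 73.6% of them were at least 2-fold higher in HuR than in IgG. This was the highest value among the bands, and the same class of TTTGTTT had medians of 1.00 at 500 bases or less, 1.18 at over 1000 to 2000, 0.42 at over 2000 to 4000 and -0.02 above 4000. The classic AU-rich pentamer ATTTA showed no such gradient of medians over IgG. They were 0.05, 0.06, 0.03 and 0.01 for 0, 1, 2 to 3 and 4 or more copies. The shares past 2-fold rose on both sides, from 17.2% to 25.1% higher and from 20.5% to 25.7% lower. Over YB-1 the median went from -0.34 to 0.61. The AU-rich nonamer TTATTTATT, which contains ATTTA, was absent from 10560 3′ UTRs (median 0.02) and present in 2 to 3 copies in 173 (0.56). Over YB-1 these stood at -0.05 and 0.74. Of the control motifs, AAANAAA gave 0.07 with none and -0.01 with 4 or more, and CCCNCCC gave -0.02 and 0.17, a smaller gradient of the same direction. Over YB-1 the control motifs gave gradients too, from -0.28 to 0.41 for AAANAAA and from -0.05 to 0.13 for CCCNCCC, so a gradient over YB-1 was not confined to U-rich motifs. These controls and the split by centre base were chosen after the first values had been seen.

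Other features moved with the ratio as well. Genes were divided into 3 equal groups by their level in the YB-1 library, which is no part of the ratio, and for 17 or more heptamers against none the medians were -0.20 and -0.47 in the lowest group, 0.64 and -0.14 in the middle and 1.05 and 0.16 in the highest. Within bands of T content of the 3′ UTR the direction was the same, with 17 or more against none at 0.49 and -0.05 where T made up over 25 to 30% of bases. Across 11298 genes Spearman's rho with the ratio of HuR over IgG was 0.15 for the number of heptamers, 0.18 for heptamers per base, 0.01 for ATTTA, -0.15 for coding length and 0.23 for the level in YB-1. These genes share both libraries and are not independent, so the values are descriptions. The parts of level and length in the gradient were not tested beyond these groups.

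Read from the ratio instead, 54.8% of the 219 genes at least 8-fold higher in HuR than in IgG held 9 or more heptamers and 9.13% held none. In all 11443 members with a 3′ UTR these shares were 22.8% and 32.0%. At the low end the sequence did not separate the classes, since of 510 genes at least 8-fold lower 18.6% held 9 or more and 33.3% none, and of 2979 up to 2-fold lower 17.7% and 36.8%. The median number of heptamers was 10 in genes at least 8-fold higher, 8 in those 4 to 8-fold higher and 1 to 2 in every class below 2-fold higher.

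**Figure D4:**
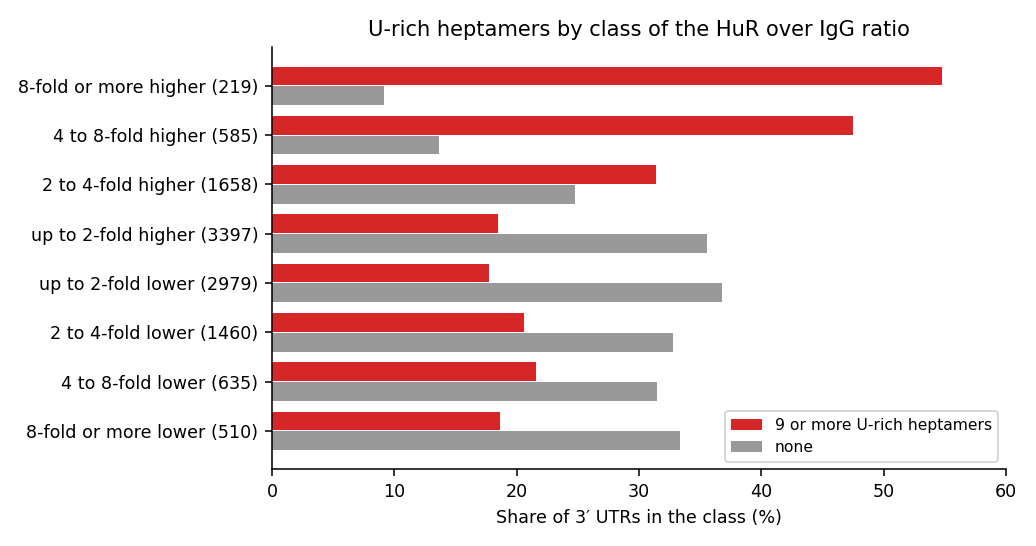
Share of 3′ UTRs in percent (x axis, from 0) that hold 9 or more U-rich heptamers (red) or none (grey), by class of the ratio of HuR over IgG (y axis, number of genes in brackets). The red share is 54.8% in the top class and between 17.7% and 21.6% in the 5 classes below 2-fold higher, where the grey share is the larger of the pair.

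Paralogs with like proteins and unlike 3′ UTRs were compared in 6 families chosen after their values were seen. Actb holds 46 heptamers in 683 bases and stood at a log2 ratio of 4.25, whereas Actg1, the other cytoplasmic actin, holds 0 in 700 bases and stood at 0.47 over IgG (-0.03 under ribosomal centring) and -0.90 over YB-1. Reads shared between such near-identical genes cannot be assigned with certainty, because the sources used here do not state how counting treated them. Pfn1 holds 16 in 274 bases and stood at 4.18, and Pfn2 holds 8 in 1322 bases and stood at -3.87. Over YB-1 both profilins were higher in HuR, at 2.85 and 2.00. Among 14-3-3 genes, Ywhaz with 29 heptamers stood at 3.92, Ywhae with 11 at 2.47 and Ywhaq with none at 1.02. Ywhag with 12 stood at 1.34, Ywhah with 3 at 1.60 and Ywhab with 6 at 0.75, below Ywhaq. The order over IgG within this family was thus not that of the heptamers. Over YB-1 the order was Ywhaz (2.67), Ywhae (2.20), Ywhag (1.66), Ywhah (0.87), Ywhab (-0.20) and Ywhaq (-0.62). This was closer to the order of the heptamers, although Ywhae stayed above Ywhag and Ywhah above Ywhab. Hmgb2 with 17 stood at 4.12, Hmgb1 with 26 at 2.24 and Hmgb3 with 1 at 0.22, which ribosomal centring turns below 0. Over YB-1 they stood in the order of the heptamers, at 3.32 (Hmgb1), 2.81 (Hmgb2) and 0.26 (Hmgb3). Snrpf with 14 stood at 4.72, against 0.16 for Snrpg with 1 and 0.28 for Snrpe with none, both below 0 under ribosomal centring. The thymosins went the other way over IgG, with Tmsb4x at 0.73 with 4 heptamers and Tmsb10 at 1.52 with none. Over YB-1 they did not, with Tmsb4x at 0.80 and Tmsb10 at -2.15.

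Single genes also went against the gradient. Pabpn1, the nuclear poly(A)-binding protein, stood at 49093 in HuR, 3844 in IgG and 4916 in YB-1 (log2 ratios of 3.68 over IgG and 3.32 over YB-1). No heptamer was found in its 3′ UTR, but the transcript used for it holds only 113 bases of 3′ UTR. Phlda1 and 0610007P14Rik were among the 12 highest with 4 and 2. Pdk4 and Clic5 were among the 12 lowest with 20 and 16. The 12 highest held a median of 23.5 heptamers and 10 of 12 held 9 or more. The 12 lowest held a median of 1.5, with 2 of 12 at 9 or more and 5 with none.

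The gene lists that follow were written from textbook knowledge with earlier results of these data known, and each is read beside the median of 0.04 and the shares of 22.0% higher and 22.8% lower over all members. The list of reported HuR targets had 32 members. Against IgG, 18 reached 2-fold higher and 4 reached 2-fold lower. The median was 1.22 over IgG and 0.70 over YB-1. Besides Actb and Myog, the highest was Ptma, which encodes prothymosin alpha, at 109947 in HuR, 5952 in IgG and 16211 in YB-1 (log2 ratio 4.21). Trp53 (2.17), the glucose transporter Slc2a1 (2.39), Ccnd1 (1.82) and the hypoxia factor Hif1a (1.56) stood between 1.5 and 2.5. Lower were Cycs, encoding cytochrome c, at -1.97, the kinase Mapk14 at -1.53, Vegfa at -1.13 and the deacetylase Sirt1 at -1.02. Vegfa stood at 1.91 over YB-1, and the transcript used for it holds only 27 bases of 3′ UTR.

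Cell cycle mRNAs were on the high side of IgG but not of YB-1. Of 40 members 25 reached 2-fold higher than in IgG and 2 reached 2-fold lower. The median was 1.30 over IgG and -0.01 over YB-1. The mitotic checkpoint gene Mad2l1 was highest, at 3.30. Cdkn1b, an inhibitor of cyclin-dependent kinases whose 3′ UTR holds 39 heptamers, stood at 6273 in HuR, 1179 in IgG and 921 in YB-1, which is 2.41 over IgG and 2.77 over YB-1. Ccnd3, the cyclin of differentiating muscle cells, stood at 0.92 over IgG and -0.42 over YB-1. Cdkn1b was thus high over both libraries, whereas the transcription factor E2f1 stood at 2.00 over IgG and -0.76 over YB-1.

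Immediate early genes, which are switched on within minutes of a stimulus and have short-lived mRNAs, stood at a median of 0.89 over IgG (0.39 under ribosomal centring) and 0.58 over YB-1, and 13 of 30 were 2-fold or more above IgG, against 1 below. Jund stood at 24524 in HuR, 5317 in IgG and 10376 in YB-1 (2.21) and the antiproliferative gene Btg1, with 48 heptamers, at 12245, 1983 and 2945 (2.63). Egr2 (2.94), Myc (2.87), Egr1 (2.49) and Klf6 (2.12) were also high. Fos stood at -0.83, the mRNA decay factor Zfp36 at -0.63 and Nr4a1 at -1.98.

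Apoptosis regulators stood at a median of 0.70 over IgG and 0.54 over YB-1. Of 24 members 11 were 2-fold or more above IgG and 2 below. After Pmaip1 came the death receptor Tnfrsf10b (3.22, 27 heptamers), the caspase Casp8 (2.79) and Cflar (1.95, 41 heptamers), an inhibitor of Casp8. Lowest were Cycs (-1.97), whose product triggers caspase activation once released from mitochondria, and Birc2 (-1.15), an inhibitor of apoptosis protein. The survival factor Mcl1 stood at -0.26.

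Cytoskeletal genes had a median of 1.03 over IgG and -0.10 over YB-1, and 20 of 39 were 2-fold or more above IgG, against 5 below. Actb and Pfn1 led the list by far, and the next was the lamin Lmnb1 at 2.26. The actin-severing protein Cfl1, with 20 heptamers, stood at 1.85, Tubb5 with 35 at 1.71 and Cfl2 with 23 at 1.57. Cfl2 stood at 48329 in HuR, 16306 in IgG and 5820 in YB-1. Tmsb10, which binds actin monomers and whose 3′ UTR holds no heptamer, was at 1.52 over IgG but at -2.15 over YB-1, with 292962 normalized counts in YB-1 against 66094 in HuR. Of the tropomyosins, Tpm2 (-1.22), Tpm1 (-1.53) and Tpm3 (-2.39) were on the low side of IgG and Tpm4 (1.34) on the high side.

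Among mRNAs of RNA-binding proteins, 10 of 32 reached 2-fold higher than in IgG and 6 reached 2-fold lower, and the median of 0.30 turned to -0.20 under ribosomal centring. Against YB-1, 20 of 32 reached 2-fold higher and none 2-fold lower, beside 21.8% and 8.25% of all members, and the median was 1.29. The list is U-rich, since 20 of 32 members hold 9 or more heptamers, beside 22.8% of all members with a 3′ UTR. After Elavl1, the highest over IgG were Igf2bp2 (2.82), Hnrnpl (2.74), the decay factor Zfp36l1 (2.32) and Khsrp (2.27), which also acts in mRNA decay. Pcbp2, which binds C-rich sequence, stood at 36026 in HuR, 18068 in IgG and 7129 in YB-1. The heterogeneous ribonucleoproteins Hnrnpa1 (-1.95) and Hnrnpa2b1 (-1.13) and the splicing regulator Mbnl2 (-1.57) were on the low side of IgG, and Mbnl1 on the high side (1.66).

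Splicing factors had a median of 0.32 over IgG (-0.18 under ribosomal centring) and -0.08 over YB-1, and 7 of 32 were 2-fold or more above IgG, against 3 below. After Snrpf came Srsf9, an SR protein, at 8215 in HuR, 968 in IgG and 683 in YB-1 (3.08), then the Sm protein Snrpd1 (2.10) and Srsf6 (1.95). Srsf2 stood at 0.59 over IgG and 2.12 over YB-1.

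Ribosomal protein mRNAs that passed the HuR minimum, 81 of 85 in the table, formed a narrow group over IgG. The other 4 were at 0 reads in HuR and together held 3047 IgG reads, so the minimum removed them. For the 81 the median was 0.50 over IgG with quartiles of 0.18 and 0.74, and 6 reached 2-fold higher, none 2-fold lower. Over YB-1 the median was -0.73, and 27 reached 2-fold lower, none 2-fold higher, beside 8.25% and 21.8% of all members. Rpl27 was highest over IgG (1.93) and Rpl30 lowest (-0.72). Only 4 of the 81 hold 9 or more heptamers, beside 22.8% of all members with a 3′ UTR. Translation factors had a median of -0.14 over IgG (0.06 under total reads) and -0.27 over YB-1. Of 39 members, 3 lay 2-fold or more above IgG, among them the cap-binding protein Eif4e (1.84) and the helicase Eif4a1 (2.37). As far below lay 5, with Pabpc1 at -3.24. The table holds 40 translation factors, and the gene below the HuR minimum had 14553 IgG reads.

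Growth factor and signalling genes had a median of 0.15 over IgG (-0.35 under ribosomal centring) and 0.36 over YB-1, and 11 of 41 were 2-fold or more above IgG, against 9 below. Igf2, an autocrine growth factor of differentiating muscle cells, stood at 9023 in HuR, 1448 in IgG and 17762 in YB-1, so it was 2.64 over IgG but -0.98 over YB-1. The Notch target Hey1 (1.95), the GTPase Nras (1.75) and the receptor Fgfr1 (1.59) were high, and Axin2 (-4.76), Wnt5a (-3.94) and Pdgfra (-3.32) low. Extracellular matrix genes centred at 0.01 over IgG, which centring on all members or on ribosomal protein genes turns below 0, and at -0.09 over YB-1. In that list 6 of 32 were 2-fold or more above IgG and 7 below. Thbs1, a matrix glycoprotein with 21 heptamers, was highest at 2.72 and Dcn, encoding decorin, lowest at -3.30. Zinc finger genes lay on the low side of IgG, with a median of -0.26 and 43 of 274 at 2-fold or more above IgG against 78 below, but on the high side of YB-1, with a median of 0.29. Long noncoding RNAs had a median of 0.84 over IgG and 0.83 over YB-1, with 6 of 14 at 2-fold or more above IgG and 2 below. Neat1 (-5.67) and Malat1 (-1.87) were lowest, and Xist (3.02), Dnm3os (2.18) and Tug1 (2.01) highest.

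Adult contractile genes, which encode proteins of mature muscle fibres, had the lowest median of the lists. Of 33 adult contractile members 29 lay 2-fold or more below IgG, 22 of them 8-fold or more, and none lay 2-fold above. The median was -3.67. Myh2, the myosin heavy chain of fast oxidative fibres, stood at 353 normalized counts in HuR, 301284 in IgG and 293 in YB-1, a log2 ratio of -9.74. Mybpc1, a myosin-binding protein of slow fibres, stood at 177, 113630 and 203 (-9.33), and Acta1, the adult skeletal actin, at 103252, 689855 and 189406 (-2.74). IgG lay above both HuR and YB-1 for these 3 genes. The 9 developmental contractile genes of newly formed fibres were on the other side, with 6 at 2-fold or more above IgG, 1 below and a median of 1.16. Over YB-1 the medians were -0.26 for the adult and -0.74 for the developmental genes, the latter the lowest of the lists.

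Others of the 12 lowest were also far higher in IgG than in HuR and in YB-1. Car3, a carbonic anhydrase of slow fibres, stood at 169 in HuR, 66309 in IgG and 107 in YB-1, and Lpl, the lipase of capillary walls and muscle, at 147, 48936 and 68.0. Also among the 12 lowest were Hspb6 (-7.85), a small heat shock protein of muscle, Myl2 (-7.68), a myosin light chain of slow fibres, and Pdk4 (-7.48), a kinase that restrains glucose oxidation. Txlnb (-6.91), Ldhb (-6.46), the lipid droplet protein Plin4 (-6.32), Myo18b (-6.30) and Clic5 (-6.28) completed the set. For the 12 lowest, HuR over YB-1 ran from -1.85 to 1.11 with a median of 0.08. The adipocyte and endothelial markers given above were likewise higher in IgG than in HuR and YB-1, and whether this bears on these ratios was not tested.

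Oxidative phosphorylation mRNAs, nuclear-encoded subunits of the respiratory chain, stood at a median of -1.46, and 56 of 75 lay 2-fold or more below IgG and none above. Atp5b, a subunit of ATP synthase, stood at 30859 in HuR, 73556 in IgG and 44790 in YB-1. Cox7a1, the muscle isoform of a cytochrome oxidase subunit, was lowest, at -7.67. Over YB-1 the list remained on the low side, with a median of -0.62. There 13 of 75 lay 2-fold or more below YB-1 and none above, beside 8.25% and 21.8% of all members. Glycolytic genes had a median of -0.59 over IgG and -0.63 over YB-1. Aldoa stood at 30151 in HuR, 95699 in IgG and 58650 in YB-1, and Gapdh at 89770, 84875 and 287728. The log2 ratio of Gapdh over IgG of 0.08 turns below 0 under ribosomal centring, and over YB-1 it was -1.68. The 386 members at least 8-fold higher in IgG than in both other libraries held 17.7% of the IgG reads, and their part in these low ratios was not tested.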

How the data were processed

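RNA from immunoprecipitates of C2C12 extracts was sequenced, with 1 library each for anti-HuR, anti-YB1 and IgG. The deposited values are a signal per gene, the authors' normalized counts (read counts divided by a size factor per library). The deposited table also gives log2 fold changes, p-values and a score that the authors computed with DESeq2 for YB-1 against IgG, and none of these was used. The submitters' processing notes name DESeq2, HTSeq (0.6.1) and TopHat2 (2.0.10), and the builds GRCm38 and mm10. No source used here states their parameters or the strand setting. In 100% of values whole reads were recovered (within 0.01 read), 1 read being worth 0.862 normalized counts in HuR, 2.29 in IgG and 0.531 in YB-1. A count test on these reads was not run, since 1 library per antibody leaves no spread between replicates.

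Dropped were 25 rows named by a date. Genes at 10 or more normalized counts in HuR were kept, and log2 ratios were taken from the normalized counts, with a library at 0 set to 3 reads. Intervals are exact 95% Clopper-Pearson intervals of the ratio of reads. Their width reflects counting error alone, because PCR copies of a molecule cannot be recognised here. The interval and ratio code was tested on simulated data. Symbols were matched to GENCODE M21 (GRCm38) for 11219 members directly and 603 by synonym, and the principal protein-coding transcript gave the 3′ UTR. Computations used Python 3.11.15, pandas 2.3.3, NumPy 2.4.6, SciPy 1.17.1 and matplotlib 3.10.9.

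Named genes are Myog, Myod1, Cdkn1a, Elavl1, Ybx1 and Hmgb1, the 12 highest ratios at 1000 or more in HuR, the 12 lowest at 100 or more, the 8 RNAs with most reads and the 2 members of highest level in each of 19 lists. Any other gene was picked once its values were known. The members, lists and motifs were chosen with earlier results of these data known. Alternatives were the scaling (total reads, centring on ribosomal protein genes or on all members), the minimum, the floor and a pseudocount of 1. Added after seeing the data were minima in IgG and YB-1, the longest 3′ UTR and the ratio of HuR over YB-1. The IgG minimum was set on top of the HuR minimum, and the YB-1 minimum replaced the HuR minimum.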

Additional observations from a re-analysis of the deposited data

How the results depend on the processing

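No paired analysis was possible because each antibody has 1 library. For the same reason no library could be left out of an antibody's group. Ratios scaled to total reads gave medians of 0.24 over all members, 0.69 for ribosomal protein genes and -0.070 for zinc finger genes. Centred on ribosomal protein genes, 1547 genes were at least 2-fold higher, and medians were -0.45 over all members, 0.39 for immediate early genes, 0.81 for cell cycle, 0.53 for cytoskeleton, -1.95 for oxidative phosphorylation, -0.63 for translation factors, -0.18 for splicing factors, -0.35 for signalling genes, 0 for ribosomal protein genes and -0.76 for zinc finger genes. Centred on all members, their median is 0 by construction. With 50 or more in HuR the median over all members was 0.11. With no minimum, 4827 genes were at least 2-fold lower and medians were -0.23 over all genes and -0.48 for zinc finger genes. With a mean of the 2 columns at 10 or more these were 4212, -0.18 and -0.44. With 50 or more IgG reads, 1643 genes were at least 2-fold higher and the median was -0.067. With 10 or more in YB-1 in place of the HuR minimum, 11694 genes were compared and the median was -0.015. These shifts follow from the constants added and from the genes admitted or dropped. With a floor of 1 read 2650 genes were at least 2-fold higher, and with a pseudocount of 1 it was 2630. The scalings add 1 constant to every gene and cannot change the difference by U-rich heptamers. Under the filters, the floor, the pseudocount and the longest 3′ UTR it kept its direction in each of the 4 length bands. The median of the myogenic list was 0.55 with 50 or more in HuR and 0.04 with 10 or more in YB-1, against -0.03.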

Other observations

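Among genes that are not protein-coding, the classes differed. The 82 members annotated as lincRNAs had a median log2 ratio of 0.65, with 32 at least 2-fold higher and 17 lower, beside 22.0% and 22.8% of all members, against a median of 0.04 for 11518 protein-coding members. Antisense genes had a median of 0.62 (28 of 65 higher, 15 lower), but reads of a gene and its antisense partner cannot be told apart here. Processed transcripts were close to protein-coding genes in the median alone (0.097). Of 73 of them, 23 were at least 2-fold higher and 18 lower, beside 2480 and 2627 of the 11518 protein-coding members. Processed pseudogenes had a median of 1.45, with 12 of 23 higher and 1 lower, but reads of such copies cannot be told apart from those of their parent genes.

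U-rich heptamers before the 3′ UTR, in the 5′ UTR and coding sequence, were rare: 8345 transcripts held none (median 0.09). The 82 with 9 to 16 and the 42 with 17 or more had medians of 0.63 and 0.70, and over YB-1 of 0.81 and 0.82. Transcripts with 3 to 8 had a median of -0.20, so there was no steady gradient over IgG. The ratio was also lower for long coding sequences. Members with coding sequences of 2496 bases or more had a median of -0.30, against 0.23 at 747 bases or less.

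Below the HuR minimum lay 3509 genes, of which 3127 were at 0 reads in HuR and 604 at 100 or more normalized counts in IgG. They held 3.25% of the IgG reads and 0.00919% of the HuR reads. Over the whole table, 1911 genes at 10 or more in IgG were at least 8-fold above both other libraries and held 20.9% of the IgG reads.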
